A study of Mus musculus with 16 samples.

Results

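Laminin and integrin genes were followed in the developing cloaca of the mouse, the chamber shared by gut and urinary tract in the early embryo, and in its later derivatives. Every row of the deposited tables was taken whose gene name is that of a laminin alpha, beta or gamma chain or of an integrin alpha or beta subunit. Of the 23234 genes listed, 36 are described, 10 for laminin chains and 26 for integrin subunits, and none of the 36 shares its row with another gene. The study took its tissue by laser capture microdissection, on frozen and stained sections, from wild type male embryos of the outbred CD1 stock. At embryonic day 10.5 (E10.5) the dorsal and the ventral part of the cloaca were captured, and at E13.5 the hindgut, labelled as epithelium of hindgut and rectum, and the urethra, labelled as pelvic urethra and its epithelium. Each of these 4 groups had 4 libraries, 1 per embryo with none pooled, and each embryo gave both regions of its age. No allele, transgene or agent was used in any group. The deposited tables hold 1 FPKM value (mapped fragments scaled to transcript length and to library size) per gene, region and age and no value per embryo, so that no spread, standard error or test could be given and every difference is without a check between embryos. The depth of the libraries is unknown.

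Laminins are secreted trimers of an alpha, a beta and a gamma chain and are the founding network of the basement membrane, the sheet of matrix under every epithelium. Integrins are cell surface receptors made of an alpha and a beta subunit, and they tie the cytoskeleton to laminin, collagen, fibronectin and other ligands. In stratified epithelia the laminin that holds the alpha 3 and beta 3 chains is bound by the integrin of alpha 6 and beta 4 in hemidesmosomes, the rivets that hold basal cells to their matrix.

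A gene was kept in a comparison when it had at least 1 FPKM in either of its columns, and the difference was taken as that of log2(FPKM + 1), which understates the change of genes at low levels. Genes past a difference of 1 in size are called higher or lower, by a rule of size and not a test. The 4 columns can be checked against their labels. All 7 epithelial markers, such as Epcam and Cdh1, stood above 1 FPKM in every column, with a summed level of 1469 to 2403 FPKM. The 8 mesenchymal markers summed to 106 to 112 FPKM in the 4 columns, so that the captured pieces also held RNA of such genes. Single markers moved in opposite ways between ages. In dorsal and ventral columns Prrx1 stood at 44.7 and 65.1 FPKM at E10.5 and at 2.08 and 8.29 at E13.5. Vim stood at 27.4 and 14.8 FPKM at E10.5 and at 58.1 and 73.0 at E13.5. The close sums thus do not show an equal share of mesenchyme. The 6 endothelial markers summed to between 0.447 and 0.886 FPKM except in the ventral cloaca, where they reached 10.6 FPKM with only Esam above 1. The 6 red cell genes, 4 of them globins, summed to 886 and 1183 FPKM in dorsal and ventral cloaca at E10.5 and to 35.3 and 76.6 FPKM in hindgut and urethra at E13.5. The E10.5 and E13.5 values come from separate tables that may each have been normalized on their own, which bears on any level set across ages.

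Of the 36 genes, 21 reached 1 FPKM in at least 1 of the 4 columns and 14 reached it in every column. The other 15 genes stayed under 1 FPKM throughout, the highest being Itga2, an alpha subunit of collagen receptors, at 0.956 FPKM in hindgut. They were Lama2, Lamc3, Itga2, Itga2b, Itga4, Itga7, Itga10, Itga11, Itgad, Itgae, Itgal, Itgam, Itgax, Itgb2 and Itgb3. Itgad was the only one listed at 0 in all 4 columns, and a listed 0 can be a failed estimate. The genes Itga1, Itga4, Itga7, Itga8, Itgad, Itgae and Itgb4 overlap another gene in the tables (for Itgb4 it is Galk1, for Itga1 it is Pelo, for Itga8 E030013I19Rik), and reads of overlapping genes may be split between them. In bulk tissue, fewer cells of a type and less RNA per cell cannot be told apart.

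The laminin alpha chains decide which receptors a laminin binds. Lama5, the alpha chain of most mature epithelial basement membranes, stood at 16.2 FPKM in dorsal cloaca, 26.3 in ventral cloaca, 25.5 in hindgut and 37.5 in urethra. It was the most abundant alpha chain in all 4 columns. Lama1, the alpha chain of the earliest embryonic basement membranes, stood at 10.4 FPKM in dorsal cloaca, 8.77 in ventral cloaca, 2.28 in hindgut and 4.64 in urethra. Its levels were lower at E13.5 than at E10.5 on both sides, by 1.80 dorsally and 0.79 ventrally on the log2 scale, and the ratio of Lama1 to Lama5 was 64.2% and 33.4% at E10.5 in dorsal and ventral cloaca and 8.93% and 12.3% at E13.5 in hindgut and urethra.

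Lama3, the alpha chain of the hemidesmosome laminin, showed the opposite order in age. It stood at 0.0613 FPKM in dorsal cloaca, 0.273 in ventral cloaca, 10.1 in hindgut and 13.3 in urethra. Both columns of E10.5 were thus near 0 and both of E13.5 at 10 or more, a difference between ages of 3.38 on the dorsal and 3.49 on the ventral side on the log2 scale. On mm10 Lama3 (XLOC_009326) spans 12334024 to 12583012 of chromosome 18. Lama4, an alpha chain known from vessel walls and mesenchyme, stood at 0.390, 0.343, 1.20 and 0.0974 FPKM in the same order of columns, and Lama2, the chain of muscle basement membranes, stayed between 0.227 and 0.941 FPKM.

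Lamb1 is the beta chain of most laminins. It stood at 48.0 FPKM in dorsal cloaca, 54.9 in ventral cloaca, 33.9 in hindgut and 56.0 in urethra, the highest beta chain in each column. Lamb2, the beta chain of basement membranes at synapses and in the kidney glomerulus, lay between 6.61 and 9.06 FPKM in all 4 columns, the narrowest spread of the 3 beta chains. Lamb3, the beta chain found with Lama3, stood at 0.572 FPKM in dorsal cloaca, 3.66 in ventral cloaca, 19.0 in hindgut and 16.1 in urethra. It was therefore lowest in dorsal cloaca, higher by 1.57 on the log2 scale in ventral cloaca, and highest in the 2 regions of E13.5, which differed by only -0.22 (urethra minus hindgut). Lamb3 (XLOC_000633) spans 193301994 to 193343878 of chromosome 1, on the plus strand.

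Lamc1, a gamma chain that enters most laminin trimers, stood at 39.5 FPKM in dorsal cloaca, 74.3 in ventral cloaca, 35.2 in hindgut and 58.4 in urethra. Ventral exceeded dorsal levels at both ages, by 0.89 at E10.5 and 0.71 at E13.5 on the log2 scale, short of the size rule. Lamc3 was listed at 0 in both regions of E10.5 and stood at 0.0031 and 0.035 FPKM in hindgut and urethra. Lamc1 (XLOC_001063) spans 153218922 to 153332786 of chromosome 1.

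**Figure D1:**
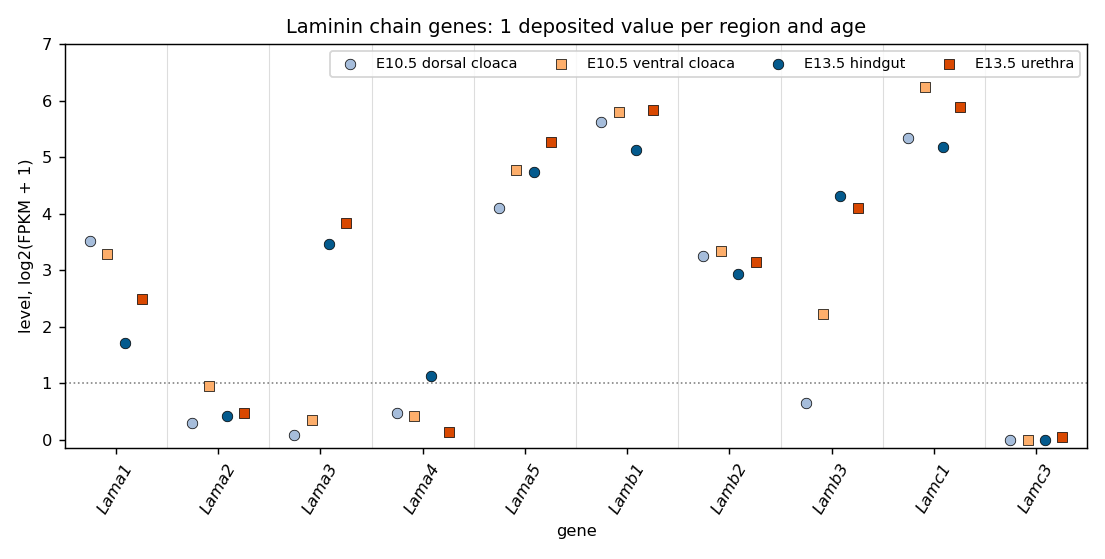
Level of the 10 laminin chain genes described as log2(FPKM + 1), with 1 deposited value per region (circles dorsal, squares ventral) and age (pale E10.5, dark E13.5); the dotted line marks 1 FPKM. Lama3 and Lamb3 are higher in both E13.5 columns than in both E10.5 columns. Lama1 is lower in both, past the size rule on the dorsal side only. Lama5, Lamb1 and Lamc1 are high in all 4 columns.

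The levels can also be read as shares of the summed FPKM of a chain family, which is per length. Lama3 made up 0.22% of the alpha chain level in dorsal and 0.75% in ventral cloaca, against 25.5% in hindgut and 23.8% in urethra. Lama1 held 38.1% and 24.0% at E10.5 and 5.78% and 8.28% at E13.5. Lama5 held 59.4% and 71.8% at E10.5 and 64.8% and 67.0% at E13.5, in dorsal and ventral columns. Lamb3 made up 1.00% and 5.41% of the beta chains at E10.5 and 31.9% and 20.2% at E13.5. The ratio of Lamb3 to Lamb1 was 1.19% in dorsal cloaca, 6.66% in ventral cloaca, 55.9% in hindgut and 28.8% in urethra.

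Promoters are shown for Lamb3 and for Itgb6, described below, which were under 1 FPKM in dorsal cloaca and above it in both regions of E13.5, and for Lama5 and Itgb1, which were high in all 4 columns. Each is the 250 bases before a RefSeq start that matches the gene's listed position (GRCm38.p6, the assembly of mm10). They run 5′ to 3′ on the gene's strand, with capitals for GC boxes (GGGCGG) and E-boxes (CANNTG), searched on both strands. Lamb3 and Itgb6 each have another RefSeq start, whose windows held 1 and 3 E-boxes and no GC box at 61.2% and 38.0% GC. The windows shown are chr1:193301744-193301993 (plus strand), chr2:60722604-60722853 (minus), chr2:180225860-180226109 (minus) and chr8:128685404-128685653 (plus).
Lamb3: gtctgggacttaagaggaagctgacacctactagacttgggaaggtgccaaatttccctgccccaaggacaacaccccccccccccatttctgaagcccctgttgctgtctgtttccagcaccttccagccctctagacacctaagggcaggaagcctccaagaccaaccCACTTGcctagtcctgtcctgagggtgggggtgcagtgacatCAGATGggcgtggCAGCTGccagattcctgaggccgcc
Itgb6: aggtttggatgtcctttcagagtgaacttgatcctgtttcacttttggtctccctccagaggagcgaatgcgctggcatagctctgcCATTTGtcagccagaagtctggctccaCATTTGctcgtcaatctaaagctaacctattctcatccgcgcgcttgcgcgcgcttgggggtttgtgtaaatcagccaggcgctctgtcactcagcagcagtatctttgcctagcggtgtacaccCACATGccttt
Lama5: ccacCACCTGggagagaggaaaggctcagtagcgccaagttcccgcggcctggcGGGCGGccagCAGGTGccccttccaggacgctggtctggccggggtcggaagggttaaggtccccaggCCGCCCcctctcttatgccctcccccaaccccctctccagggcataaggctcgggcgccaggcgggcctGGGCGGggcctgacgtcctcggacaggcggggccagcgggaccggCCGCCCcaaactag
Itgb1: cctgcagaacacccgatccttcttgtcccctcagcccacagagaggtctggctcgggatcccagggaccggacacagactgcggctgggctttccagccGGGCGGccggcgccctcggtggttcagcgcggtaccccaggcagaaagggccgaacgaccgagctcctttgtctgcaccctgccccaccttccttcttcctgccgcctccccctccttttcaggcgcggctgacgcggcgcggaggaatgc
The Lamb3 and Itgb6 windows each held 3 E-boxes and no GC box. The Lama5 window held 4 GC boxes and 2 E-boxes, and the Itgb1 window 1 GC box and no E-box. Their GC content was 58.8%, 52.0%, 72.4% and 68.0% in the same order. The window of Itgb7, also under 1 FPKM in dorsal cloaca and above it at E13.5, likewise held no GC box, with 1 E-box. Other genes did not keep to this contrast. The windows of Itgav and Lamb2, above 1 FPKM in every column, held no GC box. That of Itgb5, also above 1 FPKM in every column, held 3 GC boxes and 3 E-boxes. Over the 26 RefSeq promoter windows searched, of 23 of the 36 genes, 34.6% held a GC box and 80.8% an E-box, against 32.7% and 66.2% of 32851 windows of all genes, so that the share with a GC box was close to that of all genes. An AP-1 site (TGANTCA) was found in 1 of the 26, that of Itgax, against 6.75% of all windows, and a TATA box (TATAAA) in 0 against 12.4%. No motif overlapped another in the 4 windows shown. A match describes the letters of a window only, and a window without one says nothing of the factor.

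Receptors for laminin are formed by the alpha subunits Itga3, Itga6 and Itga7 with Itgb1, and by Itga6 with Itgb4. Itga6 stood at 22.9 FPKM in dorsal cloaca, 61.3 in ventral cloaca, 38.0 in hindgut and 48.7 in urethra. It was higher ventrally by 1.38 at E10.5 and by 0.35 at E13.5 on the log2 scale, and on mm10 Itga6 (XLOC_010910) spans 71787083 to 71856758 of chromosome 2. Itga3 stood at 23.4, 27.8, 28.2 and 38.9 FPKM in the same order, with all 4 values within 2-fold of each other. Itga7, the muscle laminin receptor, was listed at 0 in 3 columns and stood at 0.0094 FPKM in urethra.

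Itgb4, the beta subunit of hemidesmosomes, stood at 3.23 FPKM in dorsal cloaca, 5.20 in ventral cloaca, 25.2 in hindgut and 29.7 in urethra. The regions of an age were close, at 0.55 at E10.5 and 0.23 at E13.5, while the ages differed by 2.63 dorsally and 2.31 ventrally on the log2 scale. The level of Itgb4 was 14.1% and 8.49% of that of its only alpha partner, Itga6, in dorsal and ventral cloaca, and 66.1% and 61.0% in hindgut and urethra. Itgb4 (XLOC_003144) spans 115974725 to 116012719 of chromosome 11.

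Itgb1, the beta subunit shared by most integrins, stood at 64.2 FPKM in dorsal cloaca, 74.7 in ventral cloaca, 48.7 in hindgut and 45.3 in urethra. It was the most abundant beta subunit in 3 of the 4 columns. In urethra Itgb5 was level with it. Its share of the summed beta subunits was 81.7% and 64.8% in dorsal and ventral cloaca and 44.1% and 34.9% in hindgut and urethra, beside which Itgb4 had 4.10%, 4.52%, 22.8% and 22.9%.

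Itgb5, which pairs with Itgav as a vitronectin receptor, stood at 9.05 FPKM in dorsal cloaca, 31.6 in ventral cloaca, 27.2 in hindgut and 46.3 in urethra. Dorsal cloaca was the low column, and ventral cloaca was higher by 1.70 on the log2 scale. At E13.5 urethra was higher by 0.74. Itgav itself, the common alpha partner of Itgb3, Itgb5, Itgb6 and Itgb8, stood at 16.2, 21.9, 10.1 and 13.5 FPKM and was higher ventrally by 0.41 and 0.38. Itgb5 (XLOC_007621) spans 33829665 to 33949338 of chromosome 16.

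Itgb6, an epithelial subunit whose receptor with Itgav releases active TGF-beta, stood at 0.0225 FPKM in dorsal cloaca, 0.189 in ventral cloaca, 3.73 in hindgut and 2.34 in urethra. As for Lama3, both E10.5 columns were near 0 and both E13.5 columns above 1. Itgb8, the other subunit known for TGF-beta release with Itgav, stood at 1.85, 2.86, 2.85 and 4.22 FPKM and differed by 0.44 between regions at each age and by 0.44 between ages on each side. Itgb6 (XLOC_011835) spans 60598292 to 60722603 of chromosome 2.

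Itga5, the classical fibronectin receptor subunit, stood at 8.53, 9.60, 6.84 and 4.35 FPKM in dorsal cloaca, ventral cloaca, hindgut and urethra. Itga8, the nephronectin receptor subunit needed for kidney outgrowth, stood at 1.79 FPKM in dorsal cloaca, 0.216 in ventral cloaca, 1.34 in hindgut and 2.61 in urethra. The dorsal region was thus the higher one at E10.5, with a difference of -1.20 (ventral minus dorsal), and the urethra at E13.5, with 0.63. Itga9, a receptor subunit for tenascin and related ligands, stood at 2.28 FPKM in dorsal cloaca, 3.76 in ventral cloaca, 4.31 in hindgut and 1.57 in urethra, which is the reverse order, with 0.54 at E10.5 and -1.04 at E13.5. Whether these regional differences depend on age was not tested, since there are no values per embryo.

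Among the collagen receptor subunits only Itga1 reached 1 FPKM, at 0.864 in dorsal cloaca, 4.09 in ventral cloaca, 0.421 in hindgut and 0.411 in urethra. The ventral cloaca stood alone, 1.45 above dorsal cloaca on the log2 scale. The 7 leukocyte integrin genes summed to 0.539, 1.14, 3.02 and 2.17 FPKM in the 4 columns. Most of the E13.5 sums came from Itgb7, a lymphocyte integrin subunit, at 2.77 FPKM in hindgut and 1.33 in urethra against 0.132 and 0.536 in dorsal and ventral cloaca. Its partner subunits Itga4 and Itgae stayed at or under 0.892 and 0.530 FPKM in every column. Of 7 leukocyte and macrophage markers, 1 was above 1 FPKM in hindgut (summed level 3.99 FPKM, with Ptprc, C1qa and C1qb listed at 0) and 6 in urethra (summed level 49.6 FPKM), and Itgam, the macrophage integrin subunit, stood at 0.0516 and 0.396 FPKM in these. Their part in the levels of Itgb7 was not tested.

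**Figure D2:**
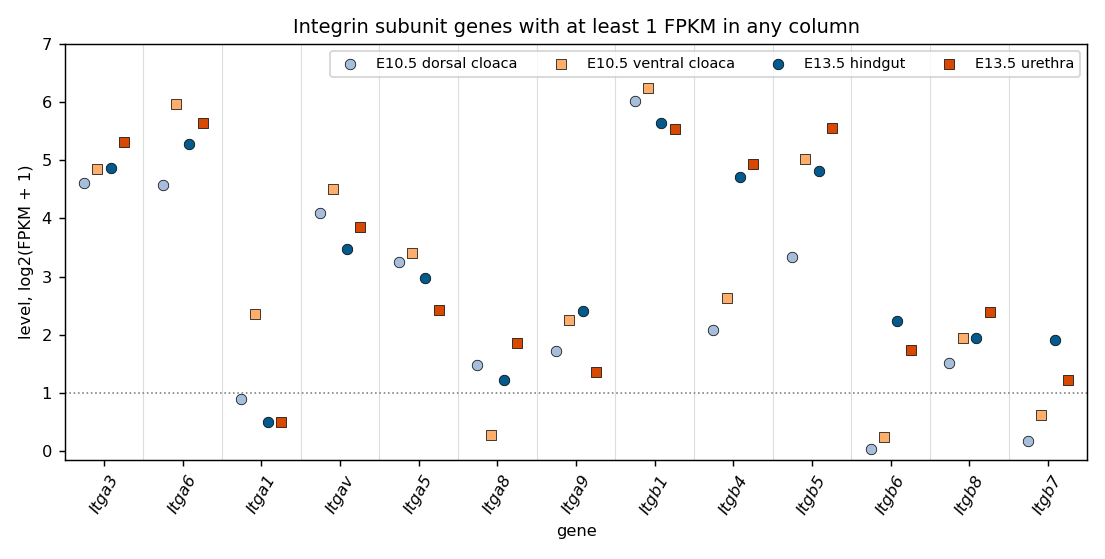
Level of the 13 integrin subunit genes with at least 1 FPKM in any column as log2(FPKM + 1), with 1 deposited value per region (circles dorsal, squares ventral) and age (pale E10.5, dark E13.5); the dotted line marks 1 FPKM. Itgb4 and Itgb6 are higher in the E13.5 columns than in those of E10.5, Itgb5 is lowest in dorsal cloaca, and Itga1 is highest in ventral cloaca. Itgb6 and Itga1 stay under 5 FPKM in every column.

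**Figure D3:**
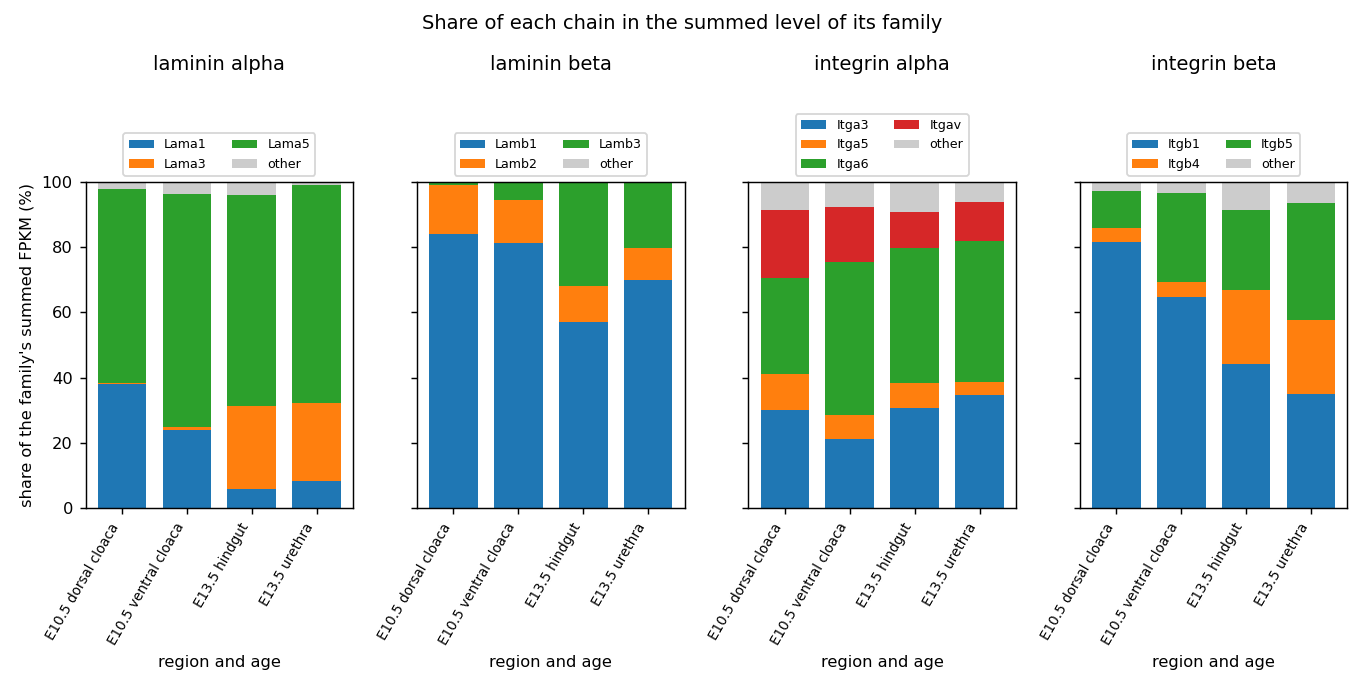
Share of each gene in the summed FPKM of its family (laminin alpha, laminin beta, integrin alpha, integrin beta), in percent, for the 4 columns; genes under 5% in every column are joined as other. The shares of Lama3, Lamb3 and Itgb4 are larger in both E13.5 columns than in both E10.5 columns.

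The first comparison the design allows is that of ventral with dorsal cloaca at E10.5, the sides that give rise to urethra and hindgut. Of 17 genes kept, 4 were higher ventrally (Lamb3, Itga1, Itga6 and Itgb5), or 23.5%, against 10.6% of the 12379 genes kept in the whole table. Itga8 alone was higher dorsally, 5.88% against 9.62% of all genes, and 12 genes were within the size rule. The median difference over the 17 was 0.44, against 0.04 over all genes kept, and 15 of the 17 had the higher value ventrally, or 88.2%, against 52.4% of all genes. A gene that reached 1 FPKM in 1 region only was kept because it was high there, as were Lamb3, Itga1 and Itga8. The counts, shares and median over the 17 are therefore no support of their own. The kept genes are not all 36, over which the median was 0.20. With a pseudocount of 5 FPKM only Itga6 and Itgb5 remained past the size rule. The 4 markers of stratified or surface epithelium (Trp63, Krt5, Krt14 and Perp) summed to 13.3 FPKM in dorsal and 185 FPKM in ventral cloaca, with Krt14 listed at 0 dorsally, and their part in these differences was not tested.

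At E13.5 fewer of these genes were past the size rule than at E10.5, and so were fewer of all genes. Of all genes kept, 10.6% and 9.62% were past it ventrally and dorsally at E10.5, against 4.16% and 4.59% at E13.5. None of the 20 kept was higher in urethra by the size rule, where 4.16% of the 12369 genes in the table were, and Itga9 and Lama4 were higher in hindgut, 2 of 20 against 4.59% of all genes. Both lay at the edge of the rule, Itga9 at -1.04 and Lama4 with 1.20 FPKM in hindgut against 0.0974 in urethra, and Lama4 no longer met it after upper-quartile scaling. Lama4 was kept only through its level in hindgut, where it was the higher, so the count of 2 is no support of its own. The median difference was 0.36, or 0.0997 over all 36 genes, against 0.01 over all genes kept, and 13 of the 20 had the higher value in urethra, against 51.7% of all genes. Closest to the rule on the urethral side were Lama1 at 0.78, Itgb5 at 0.74, Lamc1 at 0.71 and Lamb1 at 0.71. Stratified epithelium markers summed to 295 FPKM in hindgut and 805 FPKM in urethra, and their part in the levels was not tested. No gene of the 16 kept at both ages was past the size rule in the same direction at both, where 1.58% of 11486 genes were higher ventrally and 1.18% higher dorsally at both ages.

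**Figure D4:**
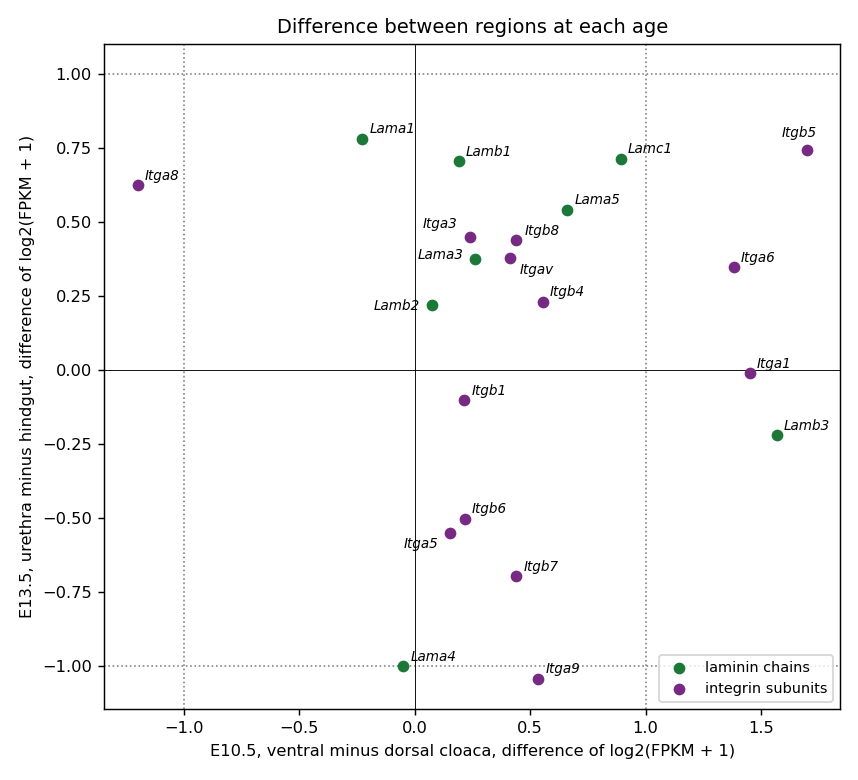
Difference between the regions at E10.5 (horizontal) and at E13.5 (vertical) as log2(FPKM + 1), ventral minus dorsal, for the 21 genes kept at either age; dotted lines mark the size rule of 1. Itgb5, Lamb3, Itga1 and Itga6 lie to the right of the rule at E10.5, and no gene lies above it at E13.5.

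The ages were compared across separate tables that may each have been normalized on their own, a comparison added after the values were seen. On the dorsal side 6 of 20 genes kept were higher at E13.5 (Lama3, Lamb3, Itgb4, Itgb5, Itgb6 and Itgb7), against 17.6% of 12550 genes, and Lama1 was lower, 1 of 20 against 10.8%. Of these, Lama3, Lamb3, Itgb6 and Itgb7 were under 1 FPKM in dorsal cloaca and were kept only through their level at E13.5. On the ventral side 5 of 20 were higher at E13.5 (Lama3, Lamb3, Itgb4, Itgb6 and Itga8), against 15.9% of 12572 genes, and Itga1 was lower, 1 of 20 against 10.4%. Lama3, Itgb6 and Itga8 were kept there only through their level in urethra, and Itga1 only through that in ventral cloaca, so these counts are no support of their own. The median differences were 0.53 dorsally and 0.23 ventrally, against 0.06 and 0.02 over all genes kept; the dorsal one was 0.024 with no minimum and 0.048 where 5 FPKM were required, and the ventral one turned to -0.077 under that requirement and to -0.056 after quantile normalization. Lama3, Lamb3, Itgb4 and Itgb6 were higher at E13.5 on both sides, 4 of 19 genes kept on both, against 9.04% of 11860 genes. Lama3 and Itgb6 were kept there only through their levels at E13.5, and so was Lamb3 on the dorsal side. This joint count is therefore no support of its own either. None of the 19 was lower on both sides, where 4.15% of all genes were. Quantile normalization moved the median of all genes on the dorsal side by -0.13, and it left all 4 past the size rule on both sides, as did upper-quartile scaling. With a pseudocount of 5 Itgb6 was no longer past the rule, at 0.80 dorsally and 0.50 ventrally, and it never reached 5 FPKM. Stratified epithelium markers were also higher at E13.5, from 13.3 to 295 FPKM in sum dorsally and from 185 to 805 FPKM ventrally, and red cell genes lower, and the part of either in these differences was not tested.

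**Figure D5:**
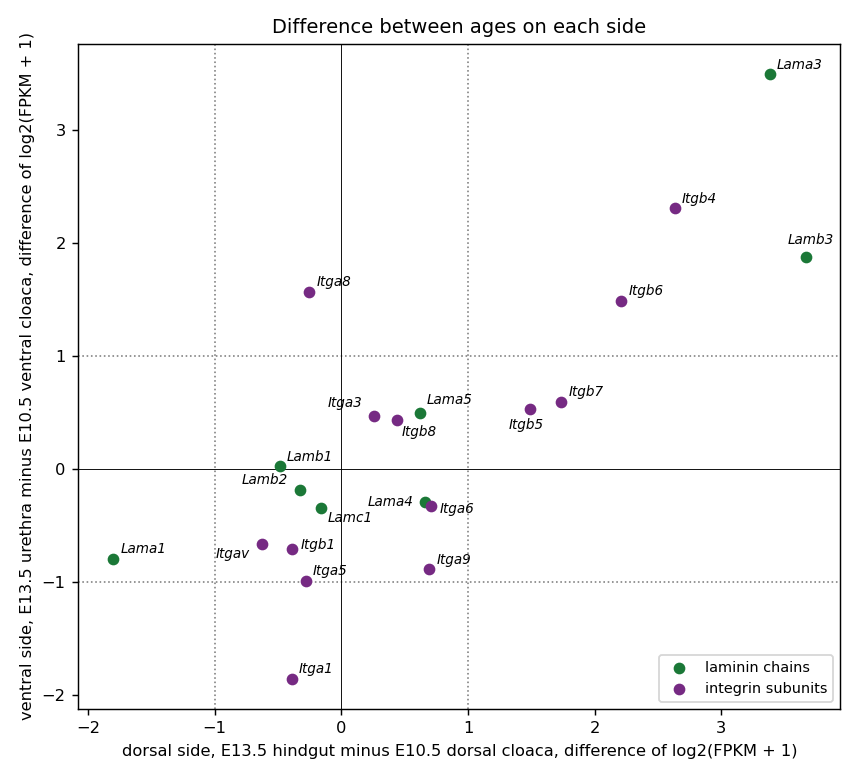
Difference between E13.5 and E10.5 as log2(FPKM + 1) on the dorsal side (horizontal) and the ventral side (vertical) for the 21 genes kept on either side; dotted lines mark the size rule of 1. Lama3, Lamb3, Itgb4 and Itgb6 lie past the rule on both axes.

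The partners of these genes were read from 4 lists. Their counts stand beside the shares of all genes given above, 10.6% higher in ventral and 9.62% in dorsal cloaca, and 4.16% higher in urethra and 4.59% in hindgut. Of the 6 genes for hemidesmosome partners, 2 were higher ventrally at E10.5, Krt5 and Krt14, which are also 2 of the 4 stratified epithelium markers. Both were under 1 FPKM in dorsal cloaca and were kept only through ventral cloaca, so their count is no support of its own. At E13.5 3 were higher in urethra, these 2 and Col17a1, and none was higher in hindgut. Krt5, a keratin of basal cells, stood at 0.262 and 17.7 FPKM in dorsal and ventral cloaca and at 42.7 and 286 FPKM in hindgut and urethra. Col17a1, the transmembrane collagen of hemidesmosomes, stood at 0.237 and 1.29 FPKM in the 2 regions of E10.5 and at 12.3 and 29.6 FPKM in those of E13.5, the same order in age as Lama3 and Itgb4. Krt14, the partner keratin of Krt5, was listed at 0 in dorsal cloaca and stood at 7.76 FPKM in ventral cloaca, 4.04 in hindgut and 146 in urethra. Plec, the plectin gene that links Itgb4 to keratin, stood at 7.45, 13.3, 29.1 and 30.2 FPKM in dorsal cloaca, ventral cloaca, hindgut and urethra. Dst, the dystonin gene of the same plakin family, stood at 28.1, 27.0, 18.2 and 34.2 FPKM, lower at the later age on the dorsal side, and Cd151, a tetraspanin that binds laminin receptors, stayed between 82.9 and 104 FPKM.

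Of the 20 genes for other basement membrane components and laminin-binding proteins, 17 were kept at E10.5, with 7 higher ventrally and none dorsally and a median of 0.42. At E13.5 18 were kept, with 5 higher in urethra, none in hindgut and a median of 0.62. Of these 5, Col4a6, Frem1 and Ntn4 were under 1 FPKM in hindgut and were kept only through urethra. So was Col7a1, which stayed within the size rule. At E10.5 Ntn4, among the 7 higher ventrally, was kept only through ventral cloaca. These counts and medians are therefore no support of their own. Col4a5 and Col4a6, collagen IV chains encoded side by side, stood at 16.3 and 9.18 FPKM in ventral against 4.73 and 2.37 in dorsal cloaca. Bcam, a receptor for the laminin alpha 5 chain, stood at 126 FPKM against 53.4 and Frem1, a matrix gene of the Fraser complex, at 11.8 against 4.33. In urethra Col18a1 stood at 44.8 FPKM against 10.2 in hindgut and Col4a2 at 29.7 against 12.5.

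Of the 16 genes for other integrin ligands, 11 were kept at E10.5, with a median of -0.49. Of these, 1 was higher ventrally, a share close to that of all genes, and 4 dorsally. At E13.5 13 were kept, with 4 higher in urethra, 3 in hindgut and a median of 0.11. At E10.5 Tgfb1, the 1 higher ventrally, was kept only through ventral cloaca, and Vtn only through dorsal cloaca. Tnc, among the 4 higher in urethra, was kept only through urethra. These counts are therefore no support of their own. Fn1, the fibronectin gene and ligand of the Itga5 receptor, stood at 226 FPKM in dorsal and 104 in ventral cloaca, and at 232 in hindgut and 84.7 in urethra. Vtn, the vitronectin gene and ligand of the Itgav and Itgb5 receptor, stood at 18.8 FPKM in dorsal and 0.713 in ventral cloaca, the reverse of Itgb5, and at 0.172 FPKM in hindgut and 0.739 in urethra. Postn, the periostin gene, stood at 28.7 FPKM in dorsal and 1.52 in ventral cloaca, and at 3.43 in hindgut and 13.1 in urethra, and Col3a1 at 13.2 against 3.36 FPKM in dorsal and ventral cloaca. Spp1 and Tgfb1 stood at 12.3 and 7.21 FPKM in urethra against 2.49 and 1.81 in hindgut. The leukocyte and macrophage markers, with 49.6 FPKM in sum in urethra and 3.99 in hindgut, moved with them, and their part was not tested.

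The last list held the cytoplasmic adhesion machinery. Of its 23 genes, 21 were kept at each age, with none higher ventrally, 2 higher dorsally at E10.5 and none at E13.5, and medians of 0.06 and 0.12, so that the share higher dorsally was close to that of all genes. Src, a kinase of integrin signalling, stood at 14.7 FPKM in dorsal and 6.74 in ventral cloaca. Parvg, a parvin of blood cells, was the other gene higher dorsally, at 2.42 FPKM and listed at 0 ventrally. It was kept only through dorsal cloaca.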

How the data were processed

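The authors deposited FPKM values in 2 tables, 1 per age, with a dorsal and a ventral column each, per the file headers. Per the submitters' processing notes, Cufflinks 2.2.1 was used and the build is mm10. The sources used here do not give the aligner, the annotation, the strand setting or how 4 libraries became 1 value. The age rests on each table's name. Without strand, overlapping genes cannot be told apart. In low values multiplied by transcript length at most 25.8% lay within 0.1 of whole steps, where 20% would by chance, so the depth stays unknown. A locus start plus 1 equals the RefSeq start for 10470 of 21177 genes, so 1 was added to print positions.

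The planned design had no test, and a model over libraries was laid down for values per library, which the tables do not hold. From the FPKM, log2 differences were computed with Python 3.11.15, pandas 2.3.3 and NumPy 2.4.6, with a pseudocount of 1 and a minimum of 1 FPKM in either column. The step was run on simulated data with planted differences larger than the size rule, on levels of at least 5 FPKM. That run checks the code only and does not cover genes at low levels. Alternatives were pseudocounts of 0.1 and 5, no minimum or 5 FPKM, and 2 scalings. Promoter sequences come from RefSeq, with genes of chromosome 18 left out of the search. Values were given by rule for each of the 36 genes with at least 1 FPKM in any column, and for the highest of the rest. Of each partner list they were given for up to 4 genes per age past the size rule and with at least 5 FPKM. Plec, Dst, Cd151, Parvg, and genes given for comparison at the other age, were added after their values were seen. Values of Lama2, Lamc3, Itga4, Itga7, Itgae and Itgam, under 1 FPKM throughout, are also given outside this rule. The genes and lists were chosen with earlier results of these data known, and 1 gene that the rule also finds is not reported here.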

Additional observations from a re-analysis of the deposited data

How the results depend on the processing

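No paired analysis was possible because the tables hold 1 value per region and none per embryo, and for the same reason no embryo could be left out. At E10.5 the 4 genes higher ventrally and the 1 higher dorsally numbered 2 and 0 with a pseudocount of 5 or a minimum of 5 FPKM; the median of 0.44 was 0.60 and 0.27 with pseudocounts of 0.1 and 5, 0.20 with no minimum, 0.33 with a minimum of 5 FPKM, 0.41 after upper-quartile scaling and 0.38 after quantile normalization. At E13.5 the 2 genes higher in hindgut numbered 0 with a pseudocount of 5 or a minimum of 5 FPKM 1 after upper-quartile scaling and 3 with a pseudocount of 0.1; the median of 0.36 was 0.38, 0.25, 0.0997, 0.38, 0.38 and 0.37 in the same order. Between ages on the ventral side the 5 higher genes numbered 3 with a pseudocount of 5 or a minimum of 5 FPKM, and the 1 lower gene numbered 3 with a pseudocount of 0.1, 0 with one of 5 or a minimum of 5 FPKM, and 2 after quantile normalization. On the dorsal side the 6 higher genes numbered 7 with a pseudocount of 0.1 and 4 with one of 5 or a minimum of 5 FPKM. The ventral median of 0.23 was 0.26, 0.11, 0.0387, -0.0774, 0.24 and -0.0558 in that order, and the dorsal one of 0.53 was 0.62, 0.21, 0.0236, 0.0480, 0.47 and 0.45. A pseudocount of 5 took 10 of 20 single differences below the size rule, upper-quartile scaling 1, and a pseudocount of 0.1 and quantile normalization none. Apart from the ventral median between ages, no median and no single difference past the rule turned its direction under these alternatives; the cause of the moves was not tested. The comparison between ages and its alternatives were chosen after seeing the data. With 1 value per column and unknown depth, no difference can be set against a spread, and values near 0 are the least certain.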
